A study of Mus musculus with 36 samples.

Results

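Cholesterol and fatty acid metabolism genes were followed in hippocampal slices of old wild-type mice and of mice with an amyloid transgene. The set held 34 genes of 55421 in the count table. They were taken by symbol for their known roles in sterol synthesis, in control by the transcription factors SREBP and LXR, and in the making of fatty acids. By role they were 5 regulators, 7 genes from the start of the mevalonate pathway to squalene, 10 genes from squalene to cholesterol, 8 genes of LXR control, efflux, transport and turnover, and 4 genes of fatty acid synthesis. All 34 had enough counts to be tested, among 19478 tested genes.

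The mice were C57BL/6 wild types or T41B mice, which carry human APP with the London and Swedish mutations behind the neuronal Thy1 promoter (line 41). All were 16 months old and had been given, by gavage for 3 months, either vehicle or BD10-2, which partially activates TrkB and TrkC, the receptors for neurotrophins. Right hippocampal slices were given theta-burst stimulation, a patterned input used to induce long-term potentiation, or a sham procedure, and were then frozen. The burst train was given 3 times. Sham and stimulated groups each held 4 wild-type and 4 T41B mice on vehicle, and 3 wild-type and 5 T41B mice on BD10-2, as separate samples from 18 mice. In 14 mice both slices were sequenced.

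Library totals ran from 11597555 to 28125842 counts, with a median of 18082415. Thy1, which the transgene cassette carries, was at 255 to 400 CPM (counts scaled to a common library total) in the 16 libraries of wild-type mice and at 880 to 2410 CPM in the 20 of T41B mice, so each library fitted its genotype label. Neuronal and astrocyte markers were high in every sample, with summed levels of 2850 to 5310 CPM and 6900 to 12900 CPM. Markers of infiltrating myeloid cells summed to at most 1.38 CPM. In all, 4 samples were rich in choroid plexus markers, with 640 to 1930 CPM against 133 to 368 CPM in the others. These were the stimulated vehicle slices of wild-type Mouse1509 and Mouse1513, and, among vehicle-treated T41B mice, the sham slice of Mouse1553 and the stimulated slice of Mouse1551.

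Brain cholesterol is made within the brain, because plasma lipoproteins do not cross the blood-brain barrier. When sterol in the endoplasmic reticulum falls, the SCAP protein carries SREBP to the Golgi, where it is cut and released to switch on the synthesis genes, and INSIG proteins hold it back when sterol is plentiful. LXR senses oxidised sterols and switches on efflux genes. In the adult hippocampus astrocytes supply cholesterol to neurons, and neurons remove it by hydroxylation.

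Promoter sequences from RefSeq (GRCm38.p6) were found for 28 of the 34 genes, 7 of them with more than 1 start. The 250 bases before each start were searched on both strands. The CCAAT box, which binds NF-Y, a partner of SREBP, was written as CCAAT and was present in 23 of 28 genes (82.1%), against 37.5% of 27025 genes with a promoter sequence. The E-box CACGTG was present in 7 of 28 (25%), against 6.86%. A spaced sterol regulatory element, TCACNCCAC, was present in Hmgcs1 and Mlxipl (7.14%), against 1.22% of all genes. A match describes only these bases, and no matches overlap in the windows shown. These windows were chosen because Insig1 and Mylip rose with stimulation in every group, Cyp51 rose in 3 groups, and Hmgcs1 holds the sterol element, 137 bases before its start. Capitals mark matches to any of the 3 motifs, with the CCAAT box also read on the other strand. The windows are chr5:28071162-28071411 on the plus strand for Insig1, chr13:45389492-45389741 on the plus strand for Mylip, chr5:4104698-4104947 on the minus strand for Cyp51 and chr13:119690101-119690350 on the plus strand for Hmgcs1.
Insig1: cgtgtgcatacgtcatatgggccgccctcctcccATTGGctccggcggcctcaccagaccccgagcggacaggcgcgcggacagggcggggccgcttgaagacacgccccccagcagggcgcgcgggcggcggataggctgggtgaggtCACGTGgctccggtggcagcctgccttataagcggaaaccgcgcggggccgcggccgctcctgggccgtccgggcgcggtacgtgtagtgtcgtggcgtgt
Mylip: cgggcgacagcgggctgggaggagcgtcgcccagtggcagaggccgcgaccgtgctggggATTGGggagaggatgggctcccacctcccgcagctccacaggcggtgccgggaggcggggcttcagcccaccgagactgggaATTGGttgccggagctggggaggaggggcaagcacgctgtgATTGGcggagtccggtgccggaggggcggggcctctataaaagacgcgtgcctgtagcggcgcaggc
Cyp51: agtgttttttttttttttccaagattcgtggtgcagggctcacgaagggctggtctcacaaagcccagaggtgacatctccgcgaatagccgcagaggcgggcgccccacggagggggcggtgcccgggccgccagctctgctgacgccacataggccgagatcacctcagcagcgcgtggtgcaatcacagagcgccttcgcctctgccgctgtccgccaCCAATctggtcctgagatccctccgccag
Hmgcs1: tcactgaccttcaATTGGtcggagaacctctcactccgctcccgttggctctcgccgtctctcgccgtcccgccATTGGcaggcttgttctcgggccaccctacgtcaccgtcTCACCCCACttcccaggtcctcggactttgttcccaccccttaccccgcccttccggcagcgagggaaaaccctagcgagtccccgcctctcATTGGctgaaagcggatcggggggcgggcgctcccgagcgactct
Insig1 has 1 CCAAT box and 1 E-box, Mylip has 3 CCAAT boxes, Cyp51 has 1, and Hmgcs1 has 3 and the sterol element.

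Levels between genes were compared per kilobase of exon, as the mean over 32 samples. Scd1 (47.9 CPM per kb), which desaturates stearate, Hmgcs1 (40.7), the first committed synthase of the mevalonate pathway, Fasn (38.2), the fatty acid synthase, and Srebf2 (35.0), the SREBP of sterol genes, were the highest. Nr1h3, which encodes LXR alpha (0.646 CPM per kb), and Mlxipl, which encodes the carbohydrate-sensing factor ChREBP (0.495), were the lowest. Scd1 and Idi1 have close paralogs, so their counts are uncertain. The exons of 11 members overlap those of another annotated gene, among them Fdps (26.7% of its exon length), Fdft1 (18.3%) and Hmgcs1 (12.1%). The overlap lies on the same strand for Fdps and on the other strand for Fdft1, with Ctsb, and for Hmgcs1. Because the strand setting of the counting is not given, reads in these stretches could belong to either gene.

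The first comparison asked how theta-burst stimulation changed the set. Values are CPM per slice, and differences are log2 fold changes with their standard error (SE) from edgeR's quasi-likelihood test. A gene is said to have risen or fallen when its Benjamini-Hochberg adjusted p over all 19478 genes was under 0.05. In wild-type vehicle slices 8.21% of all tested genes rose and 4.1% fell, and 5 and 3 of the 34 members did. In T41B vehicle slices 11.7% rose and 9.83% fell, and 5 and 1 members did. In wild-type BD10-2 slices 6.29% rose and 2.58% fell, and 2 and 2 members did. In T41B BD10-2 slices 13.3% rose and 9.52% fell, and 6 and 3 members did. The median log2 change of the members was 0.14, 0.05, 0.00 and 0.04 in that order, against -0.01, -0.05, -0.01 and -0.04 for all tested genes. Most members, 26, 28, 30 and 25 of 34, were not called.

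Insig1, which encodes an INSIG protein and is itself a target gene of SREBP, rose in all 4 groups. In wild-type vehicle mice its sham slices held 63.6, 56.5, 64.1 and 62.4 CPM and its stimulated slices 85.2, 84.5, 77.1 and 101 CPM. In T41B vehicle mice the sham values were 61.8, 72.3, 72.1 and 78.6 CPM and the stimulated values 93.9, 98.0, 119 and 97.6 CPM. Stimulated and sham slices did not overlap in any of the 4 groups, and the stimulated slice was the higher in 14 of 14 mice. On BD10-2 the sham values were 53.0, 55.2 and 52.7 CPM in wild-type mice against 63.3, 74.7 and 79.9 CPM after stimulation. In T41B mice on BD10-2 they were 67.9, 75.7, 68.5, 61.2 and 59.6 CPM against 99.8, 106, 96.0, 92.5 and 78.4 CPM. The log2 fold changes were 0.49 ± 0.10 (SE; edgeR adjusted p = 9.27e-04), 0.52 ± 0.10 (2.96e-04), 0.44 ± 0.12 (0.0136) and 0.50 ± 0.09 (7.70e-05) in wild-type vehicle, T41B vehicle, wild-type BD10-2 and T41B BD10-2 slices.

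The other regulators moved less. Insig2, the second INSIG protein, fell in wild-type slices on vehicle, from 24.1, 25.4, 26 and 25.4 CPM to 18.8, 19.9, 21.4 and 17.9 CPM, a log2 change of -0.37 ± 0.08 (SE; edgeR adjusted p = 0.00224). On BD10-2 the wild-type change was again -0.37 ± 0.09 (edgeR adjusted p = 0.00844), from 23.7, 25.6 and 28.2 CPM to 20.2, 18.4 and 21.2 CPM. T41B slices gave -0.15 ± 0.08 and -0.08 ± 0.07, which did not pass, and the difference between genotypes did not pass either (0.22 ± 0.11 on vehicle and 0.29 ± 0.12 on BD10-2, edgeR adjusted p = 0.589 and 0.962). With mouse as a block, neither Insig1 (0.34, adjusted p = 0.0807) nor Insig2 (-0.35, adjusted p = 0.0564) passed in wild-type BD10-2 slices, where 2 mice have both slices. In that group Insig1 was also not called without Mouse1571, Mouse1586 or Mouse1590 (0.39 to 0.43, adjusted p = 0.0609 to 0.0855), and Insig2 not without Mouse1571 or Mouse1590 (-0.33 and -0.30, adjusted p = 0.0976 and 0.0981) nor without the filter on low counts (-0.36, 0.0529). Srebf1, Srebf2 and Scap did not pass in any group, with log2 changes between -0.14 and 0.12. Srebf2 stood at 241 ± 26.3 CPM in sham and 237 ± 23.7 CPM in stimulated wild-type vehicle slices (SD, n = 4 each).

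**Figure D1:**
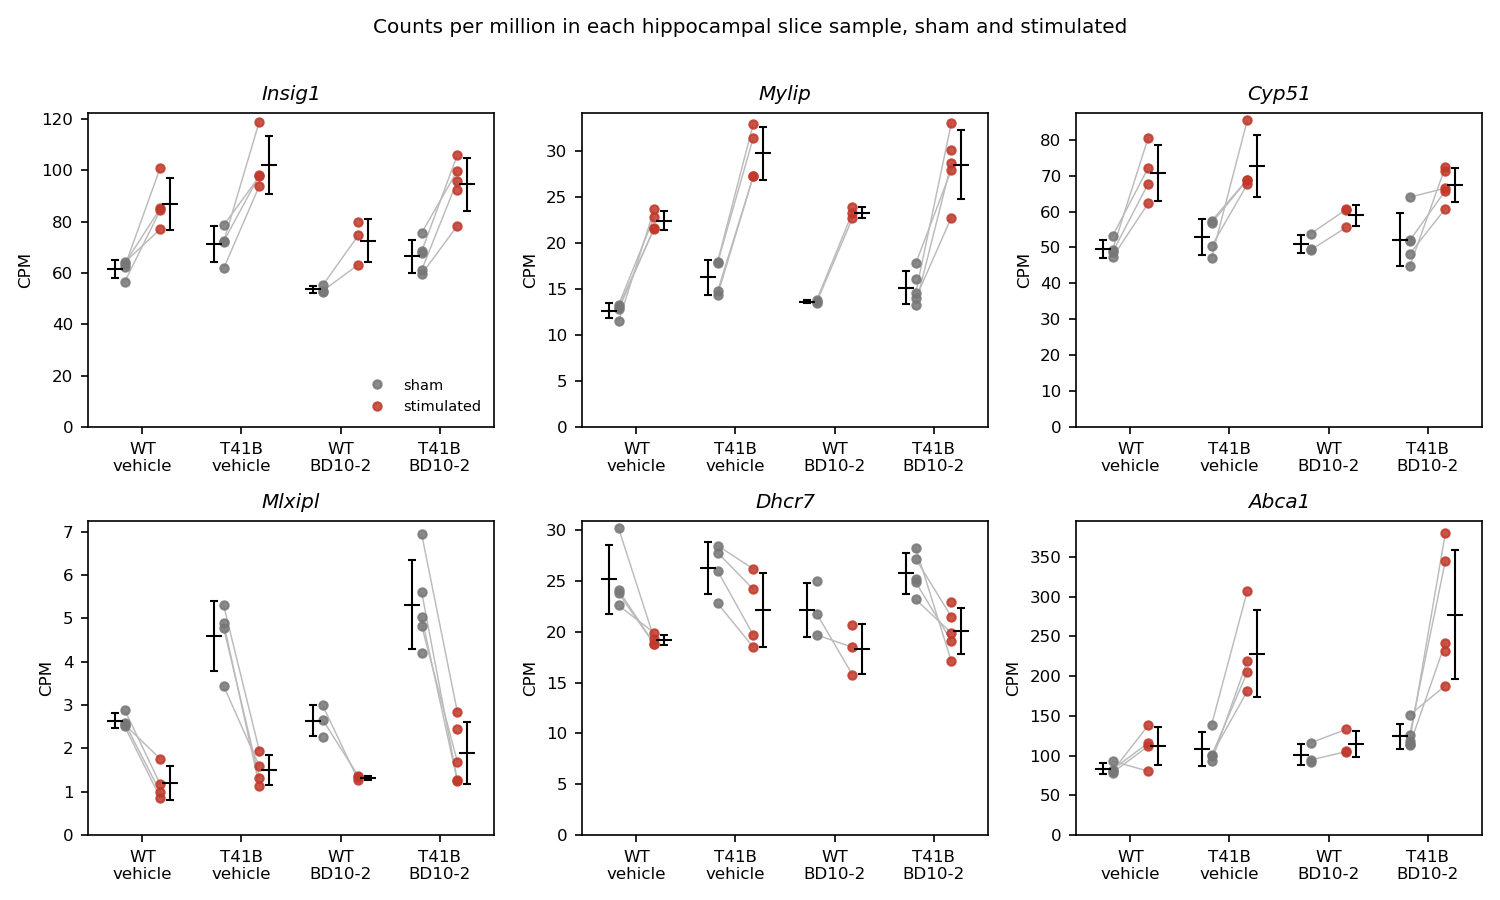
CPM of 6 genes (y axis, from 0) in each sample of the 4 combinations of genotype and treatment (x axis), with sham slices in grey and stimulated slices in red. Lines join slices of 1 mouse, and black bars give the mean and SD of each group. Insig1, Mylip and Cyp51 were higher and Mlxipl and Dhcr7 lower in the stimulated slice of each mouse, and Abca1 reached 181 to 380 CPM in the stimulated T41B slices.

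Of the 7 mevalonate genes, Idi1, the isomerase that makes the second isoprene building block, was the only one that passed in the fit without a mouse block. In wild-type vehicle slices Idi1 rose from 24.8, 27.8, 29 and 24 CPM to 32.3, 46.6, 38.6 and 47.3 CPM, a log2 change of 0.64 ± 0.13 (SE; edgeR adjusted p = 9.35e-04). In T41B BD10-2 slices it rose by 0.39 ± 0.11 (edgeR adjusted p = 0.0127), from 27.1 to 34.7 CPM in sham to 30.4 to 45.9 CPM in stimulated slices, so the groups overlapped, and without Mouse1570 the call was lost (0.36, adjusted p = 0.0616). The change was 0.28 ± 0.13 in T41B vehicle and 0.04 ± 0.15 in wild-type BD10-2 slices, neither of which passed. The difference in the wild-type response between BD10-2 and vehicle was -0.60 ± 0.20 (unadjusted p = 0.00495) and had an edgeR adjusted p of 1. Hmgcs1 stood at 168, 147, 179 and 156 CPM in sham and 188, 204, 181 and 211 CPM in stimulated wild-type vehicle slices, without overlap, and its log2 change of 0.27 ± 0.10 did not pass (adjusted p = 0.0896). With mouse as a block Hmgcs1 was called there (0.27, adjusted p = 0.0258), and Mvk, the mevalonate kinase, was called lower in T41B BD10-2 slices (-0.32, adjusted p = 0.0463). Without the block the other members of this role were between -0.24 and 0.24 in all 4 groups.

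Among the 10 genes from squalene to cholesterol, 2, 2, 0 and 2 rose in the 4 groups and 1, 0, 0 and 1 fell. Cyp51, the lanosterol demethylase, had 47.3, 48.7, 53.2 and 49.4 CPM in sham and 62.3, 67.8, 72.2 and 80.6 CPM in stimulated wild-type vehicle slices. In T41B vehicle slices it had 56.8, 50.4, 47.2 and 57.4 CPM against 68.8, 67.6, 85.4 and 68.9 CPM. Neither pair of groups overlapped. Its log2 changes were 0.51 ± 0.10 (SE; edgeR adjusted p = 4.08e-04) and 0.46 ± 0.10 (8.36e-04) on vehicle, and 0.37 ± 0.09 (0.00209) in T41B BD10-2 slices. In wild-type BD10-2 slices Cyp51 went from 49.3, 53.8 and 49.5 CPM to 55.6, 60.6 and 60.5 CPM, a change of 0.21 ± 0.11 that did not pass. The stimulated slice had more Cyp51 in 14 of 14 mice.

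Msmo1, which oxidises the methyl groups removed next, rose in wild-type vehicle slices, from 46.4, 50.8, 52.9 and 48.3 CPM to 61.4, 63.2, 65.1 and 78.2 CPM (0.43 ± 0.10, edgeR adjusted p = 0.00312; 0.34 and 0.0529 without Mouse1524). Lss, the lanosterol synthase, rose in T41B vehicle slices, from 38.5, 33.4, 37.8 and 43.0 CPM to 43.8, 43.4, 48.7 and 46.5 CPM (0.26 ± 0.08, edgeR adjusted p = 0.0271), and was not called without Mouse1551 or Mouse1553 (0.22 each, adjusted p = 0.122 and 0.135), without the filter on low counts (0.27, 0.0564) or in a fit of only these 2 groups (0.26, 0.0883). Sc5d, a sterol desaturase, rose in T41B BD10-2 slices by 0.22 ± 0.08 (edgeR adjusted p = 0.0372), and with mouse as a block this call was lost (0.24, adjusted p = 0.0503), as it was without any of Mouse1563, Mouse1564, Mouse1570 and Mouse1572 (0.19 to 0.23, adjusted p = 0.0533 to 0.149). The Sc5d call was also lost without the filter (0.23, adjusted p = 0.0848) and in a fit of only these 2 groups (0.23, 0.0743). Sqle, the squalene epoxidase and a rate-limiting enzyme, gave 0.26, 0.31, 0.01 and 0.27 in the order wild-type vehicle, T41B vehicle, wild-type BD10-2 and T41B BD10-2, and did not pass. The T41B values of Sqle were close to the threshold (adjusted p = 0.056 on vehicle and 0.0613 on BD10-2). On vehicle Sqle was called by DESeq2 (0.34, adjusted p = 0.0294), with RLE scaling (0.34, 0.0387), with mouse as a block (0.32, 0.0217) and without Mouse1579 (0.47, 0.00572). On BD10-2 it was called by DESeq2, with RLE scaling, in a fit of only these 2 groups and with the deeper of same-label libraries (0.28 to 0.31, adjusted p = 0.034 to 0.0444). Tm7sf2, Nsdhl, Hsd17b7 and Ebp did not pass in any group either. With mouse as a block Hsd17b7 was called in T41B BD10-2 slices (0.21, adjusted p = 0.0475) and Sc5d in wild-type vehicle slices (0.25, adjusted p = 0.0479).

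Dhcr7, the reductase that makes cholesterol in the last step, was lower in the stimulated slice of 14 of 14 mice. In wild-type vehicle mice it fell from 22.6, 24.1, 23.8 and 30.2 CPM to 19.9, 18.8, 18.8 and 19.3 CPM, a log2 change of -0.39 ± 0.11 (SE; edgeR adjusted p = 0.0230). In T41B BD10-2 mice it fell from 25.2, 24.9, 23.2, 28.3 and 27.2 CPM to 19.1, 19.9, 17.1, 22.9 and 21.5 CPM, by -0.35 ± 0.10 (0.0116). Stimulated and sham slices did not overlap in either group. The first call was lost without Mouse1513, Mouse1522 or Mouse1524 (-0.29 to -0.41, adjusted p = 0.0615 to 0.157) and without the filter on low counts (-0.37, 0.0537), and the other without Mouse1570 (-0.27, adjusted p = 0.0999). The other groups gave -0.25 ± 0.11 and -0.27 ± 0.13 and did not pass. Fitted with mouse as a block, T41B vehicle slices had 10 called members in place of 6, since Idi1 (0.28, adjusted p = 0.0411), Sqle (0.32, 0.0217), Dhcr7 (-0.26, 0.0482) and Stard4 (-0.34, 0.00692) passed as well. The shares of all tested genes given above belong to the fit without the block, so this count has no such share beside it.

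**Figure D2:**
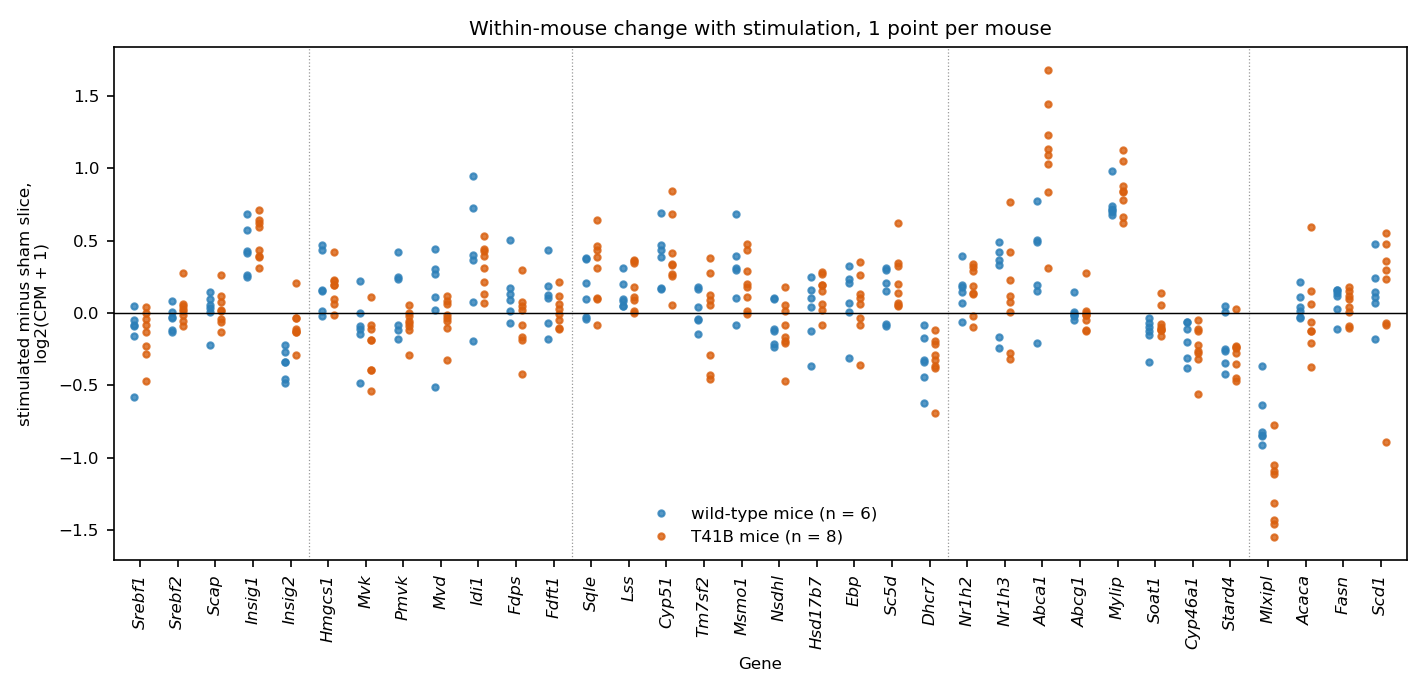
Stimulated minus sham slice on the log2(CPM + 1) scale (y axis) for each of the 34 genes (x axis, in the order of their roles), with 1 point for each of 6 wild-type mice (blue) and 8 T41B mice (orange). Insig1, Mylip and Cyp51 lay above 0 and Dhcr7, Cyp46a1 and Mlxipl below 0 in all 14 mice. Lss lay at or above 0 in all of them, with differences of 0 to 0.37.

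Mylip, an LXR-induced ubiquitin ligase that marks lipoprotein receptors for degradation, had the smallest adjusted p of the set in all 4 stimulation comparisons. In wild-type vehicle slices it rose from 13.1, 11.5, 12.8 and 13.3 CPM to 21.6, 23.7, 21.7 and 22.9 CPM. In T41B vehicle slices it rose from 14.4, 17.9, 18 and 14.8 CPM to 27.3, 31.5, 33.0 and 27.3 CPM. On BD10-2 it rose from 13.6, 13.8 and 13.5 CPM to 22.7, 23.3 and 23.9 CPM in wild-type mice, and from 16.1, 13.3, 14.6, 17.8 and 14 CPM to 28.7, 33.1, 28, 30.1 and 22.8 CPM in T41B mice. No stimulated slice overlapped the sham slices of its group. The log2 changes, in that order, were 0.82 ± 0.10 (SE; edgeR adjusted p = 1.29e-06), 0.87 ± 0.10 (1.74e-07), 0.77 ± 0.12 (2.86e-05) and 0.91 ± 0.09 (5.33e-09).

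Abca1, the transporter that loads cholesterol onto lipoprotein particles and a standard LXR target, rose in T41B slices. On vehicle its T41B values went from 100, 139, 92.9 and 101 CPM to 205, 307, 219 and 181 CPM, a log2 change of 1.07 ± 0.19 (SE; edgeR adjusted p = 8.41e-05). On BD10-2 they went from 114, 126, 118, 113 and 151 CPM to 345, 380, 242, 232 and 188 CPM, a change of 1.16 ± 0.17 (3.52e-06). In neither group did the slices overlap. Wild-type vehicle slices went from 80.4, 82.4, 78.6 and 93.0 CPM to 138, 116, 112 and 80.3 CPM (0.42 ± 0.19), and wild-type BD10-2 slices from 94.4, 116 and 92.2 CPM to 105, 133 and 106 CPM (0.19 ± 0.21), and neither passed. In the wild-type groups the slices overlapped.

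The difference between the genotypes in the Abca1 response was 0.65 ± 0.26 on vehicle (unadjusted p = 0.0184, edgeR adjusted p = 0.519) and 0.97 ± 0.27 on BD10-2 (unadjusted p = 0.00116, edgeR adjusted p = 0.444), so it did not pass over all genes. Without Mouse1592, a T41B mouse on BD10-2, it was 1.17 with an adjusted p of 0.0305. No other member was called for an interaction in any fit that left out a mouse. Abcg1, a second LXR-controlled efflux transporter, stayed between 80.1 and 99.4 CPM in all 32 samples, and its log2 changes with stimulation ran from -0.01 to 0.04. Nr1h2 and Nr1h3, which encode the LXR proteins, and Soat1, which esterifies cholesterol, did not pass in any comparison.

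Cyp46a1, the neuronal hydroxylase that turns cholesterol into a form that can leave the brain, was lower in the stimulated slice of 14 of 14 mice. Without a mouse block it passed in T41B BD10-2 slices alone, where it fell from 68.8, 67.7, 83.6, 70.3 and 68.4 CPM to 54.1, 56.5, 58.4, 60.5 and 66.1 CPM, a log2 change of -0.28 ± 0.08 (SE; edgeR adjusted p = 0.0146), without overlap. Without Mouse1564 it was -0.20 and was not called (adjusted p = 0.129). The other groups gave -0.25, -0.19 and -0.15, and with mouse as a block wild-type vehicle slices passed as well (-0.24, adjusted p = 0.0283). Neuronal markers fell with it in T41B BD10-2 slices, 4 of 8, and their summed level was 3910 to 4460 CPM in sham and 2850 to 3900 CPM in stimulated slices. In wild-type vehicle slices 1 of 8 fell, with 4630 to 5240 CPM against 4080 to 5010 CPM. The part of these markers in the Cyp46a1 values was not tested. Stard4, a carrier of cholesterol between membranes, gave log2 changes of -0.13 to -0.44 and did not pass without a mouse block. With the block it was called in T41B vehicle slices (-0.34, adjusted p = 0.00692).

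Mlxipl fell in all 4 groups and had the largest stimulation change of the set. It is a low-abundance gene, with a mean of 56.8 reads and a lowest count of 18 reads per sample. In wild-type vehicle slices it fell from 2.55, 2.59, 2.51 and 2.89 CPM to 1.76, 0.992, 0.864 and 1.17 CPM, and in T41B vehicle slices from 3.44, 4.89, 4.78 and 5.30 CPM to 1.59, 1.14, 1.32 and 1.95 CPM. On BD10-2 it fell from 2.99, 2.66 and 2.27 CPM to 1.26, 1.36 and 1.33 CPM in wild-type mice, and from 4.20, 4.82, 5.60, 5.03 and 6.94 CPM to 1.69, 1.26, 1.24, 2.45 and 2.84 CPM in T41B mice. Each stimulated slice lay below every sham slice of its group. The log2 changes, in that order, were -1.13 ± 0.25 (SE; edgeR adjusted p = 0.00239), -1.62 ± 0.24 (9.07e-06), -1.01 ± 0.28 (0.0172) and -1.46 ± 0.21 (2.87e-06). The wild-type BD10-2 call was lost without Mouse1565, Mouse1571 or Mouse1586 (-0.89 to -1.04, adjusted p = 0.0659 to 0.186). Acaca, which makes malonyl-CoA, Fasn and Scd1 did not pass in any group, with log2 changes between -0.14 and 0.28.

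Cell-type markers moved with stimulation as well. Of 10 homeostatic microglia markers 8, 9, 8 and 9 fell in the 4 groups, in the order above, and 3, 4, 0 and 3 of 8 astrocyte markers rose. Of 8 neuronal markers 1, 1, 1 and 4 fell and none rose, and of 7 endothelial markers 1, 3, 1 and 3 rose and 2, 0, 1 and 2 fell. Of 10 plaque-associated microglia markers 3, 1, 3 and 2 rose and 0, 2, 0 and 1 fell. Of 6 hippocampal neuron markers 0, 2, 1 and 1 fell, of 8 oligodendrocyte markers 0, 1, 0 and 0 fell, and none of either list rose. The summed level of the homeostatic markers was 247 to 804 CPM in sham and 115 to 434 CPM in stimulated slices over all groups. All 8 choroid plexus markers rose in wild-type vehicle slices, where 2 of the 4 stimulated samples were rich in them, and 1 of 8 rose in each other group. Without the samples rich in choroid plexus markers, 7 members were called in wild-type vehicle slices and 5 in T41B vehicle slices, and Dhcr7 in the former (-0.41, adjusted p = 0.0668) and Lss in the latter (0.28, 0.0747) no longer passed. That fit tested 19747 genes, and the shares of all tested genes given above are from the fit of all samples. In slices of mixed cells, fewer cells of a type and less RNA per cell cannot be told apart, and the part of these markers in the changes of the members was not tested.

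**Figure D3:**
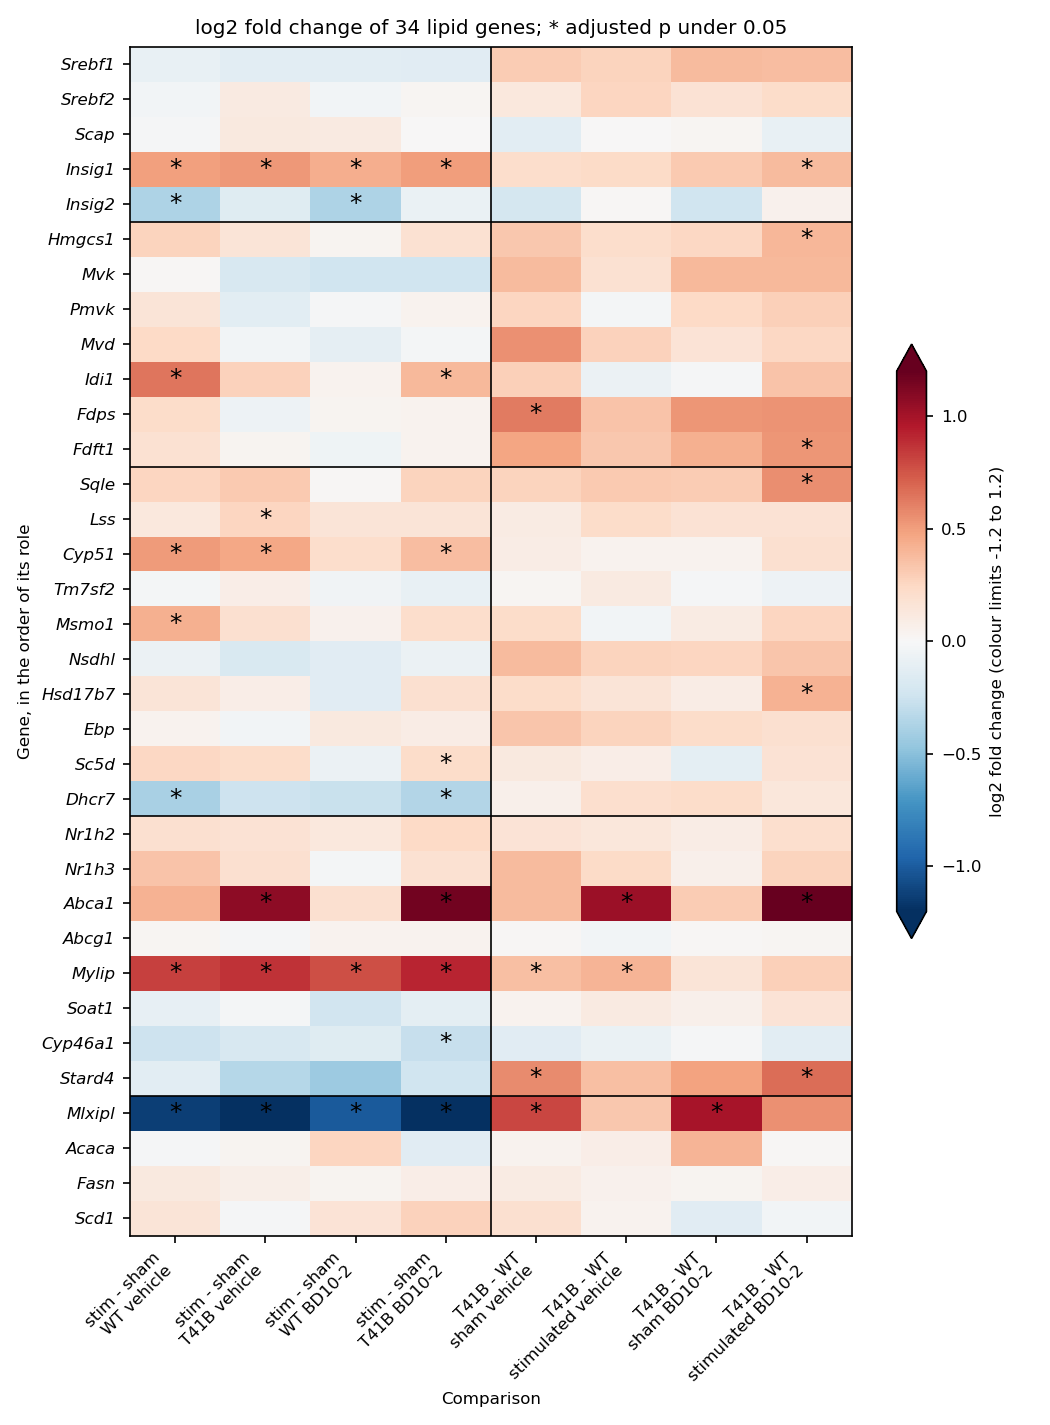
Colour gives the log2 fold change of the 34 genes (rows, by role, parted by lines) in 4 comparisons of stimulated with sham slices and 4 of T41B with wild-type slices (columns), with colours saturating at 1.2 in size. Stars mark an edgeR adjusted p under 0.05, and Insig1, Mylip and Mlxipl carry them in all 4 stimulation columns.

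The second comparison asked how T41B slices differed from wild-type slices. In sham vehicle slices 5% of all tested genes were higher in T41B mice and 1.24% lower, and 4 and 0 of the 34 members were. In stimulated vehicle slices 4.74% were higher and 1.05% lower, and 2 and 0 members were. In sham BD10-2 slices 4.31% were higher and 1.14% lower, and 1 and 0 members were. In stimulated BD10-2 slices 8.19% were higher and 2.36% lower, and 7 and 0 members were. Most members leaned upwards, with 31, 29, 28 and 30 of 34 above 0 and a median log2 difference of 0.22, 0.19, 0.16 and 0.25, against 0.00, -0.03, 0.01 and -0.02 for all tested genes. These comparisons use the same samples as the stimulation comparisons, so the results are not independent.

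In sham vehicle slices the genes that were higher were Fdps, Stard4, Mlxipl and Mylip. Fdps, the farnesyl diphosphate synthase, had 23.4, 20.6, 20.9 and 25.1 CPM in wild-type and 25.9, 29.8, 42.4 and 39.7 CPM in T41B mice (0.62 ± 0.18, edgeR adjusted p = 0.0318). Stard4 had 18, 14.4, 15.5 and 14.8 CPM against 18.8, 19.7, 26 and 28.7 CPM (0.57 ± 0.14, edgeR adjusted p = 0.0142). Mlxipl was higher by 0.80 ± 0.23 (0.0320) and Mylip by 0.36 ± 0.10 (0.0347), with the sham values given above. The genotypes did not overlap for any of these genes, but the margins were narrow for Fdps and Stard4, whose high values came from Mouse1553 and Mouse1579. None of the 4 calls held without the samples rich in choroid plexus markers (0.51 for Fdps, 0.52 for Stard4, 0.79 for Mlxipl and 0.31 for Mylip, adjusted p = 0.138, 0.0743, 0.0659 and 0.167), nor in a fit of only these 2 groups (0.61, 0.56, 0.80 and 0.35). With batch as a covariate none held either, and there Fdps dropped to 0.40 (adjusted p = 0.441) and Mylip to 0.20 (0.543), while Stard4 was 0.58 (0.075) and Mlxipl 0.94 (0.0883). Over all 15 alternative fits Mlxipl lay between 0.73 and 0.94 and Stard4 between 0.45 and 0.66. The number of members called was 0 without Mouse1513 or Mouse1553, 1 without Mouse1509, Mouse1522 or Mouse1579, and 8 without Mouse1510.

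In stimulated vehicle slices Abca1 and Mylip were higher in T41B mice. The stimulated Abca1 values given above were higher by a log2 difference of 1.03 ± 0.19 (SE; edgeR adjusted p = 4.60e-04), and those of Mylip 0.41 ± 0.10 higher (0.0103), both without overlap. The Abca1 call held in all 15 alternative fits, with differences of 0.85 to 1.15. The Mylip call was lost with batch as a covariate, where the difference was 0.25 (adjusted p = 0.160), and without the samples rich in choroid plexus markers (0.40, adjusted p = 0.139). Without Mouse1510, 4 members were called.

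In sham BD10-2 slices Mlxipl was the only member called, at 0.99 ± 0.24 (SE; edgeR adjusted p = 0.00881), and all 5 T41B values lay above the 3 wild-type values. It was not called without Mouse1571 (0.99, adjusted p = 0.0545) or Mouse1590 (0.90, 0.0755), which left 0 members called, and 2 members were called without Mouse1557, Mouse1563 or Mouse1592. The added member was Insig2, lower in T41B mice, without Mouse1557 or Mouse1563 (-0.28 each, adjusted p = 0.0479 and 0.0481) and with batch as a covariate (-0.32, 0.0357), and Insig1, higher, without Mouse1592 (0.35, 0.0363). In a fit of only these 2 groups Srebf1, Insig1, Fdps, Fdft1 and Stard4 were called too, 6 members in all. Stimulated T41B and wild-type slices differed in Mlxipl by 0.32 ± 0.26 on vehicle and 0.55 ± 0.26 on BD10-2, and neither passed. Fdps (0.53 ± 0.18, adjusted p = 0.0918), Stard4 (0.48 ± 0.15, 0.059) and Fdft1 (0.43 ± 0.16, 0.105) did not pass in sham BD10-2 slices.

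In stimulated BD10-2 slices the 7 called members were Sqle, Fdft1, Hsd17b7, Hmgcs1, Insig1, Abca1 and Stard4. Sqle had 38.9, 40.0 and 44.6 CPM in wild-type and 63.8, 63.8, 63.6, 59.5 and 53.8 CPM in T41B mice, a log2 difference of 0.56 ± 0.12 (SE; edgeR adjusted p = 0.00194). Fdft1, the squalene synthase, had 38.3, 41.5 and 51.7 CPM against 57.6, 62.9, 70.4, 66.4 and 58.9 CPM (0.53 ± 0.16, 0.0269). Hsd17b7, a sterol ketone reductase, had 12.8, 14.9 and 16.3 CPM against 22, 17.6, 20, 19.2 and 18.9 CPM (0.42 ± 0.12, 0.0163). None of these overlapped between the genotypes.

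Hmgcs1 had 143, 161 and 157 CPM in wild-type and 230, 193, 212, 201 and 180 CPM in T41B mice, again without overlap (0.40 ± 0.11, edgeR adjusted p = 0.0129). Insig1, whose groups overlapped, was 0.38 ± 0.10 higher (0.0146). Abca1 was 1.27 ± 0.20 higher (4.47e-05). Stard4 had 8.64, 10.4 and 11.3 CPM against 16.5, 15.4, 16.6, 16.8 and 15 CPM, which did not overlap (0.67 ± 0.15, 0.00314). Abca1, Sqle and Stard4 held in all 14 alternative fits. The wild-type group is 3 mice, and without Mouse1565 only these 3 members were called. Hmgcs1 was then 0.36 (adjusted p = 0.103), Insig1 0.30 (0.164), Fdft1 0.45 (0.194) and Hsd17b7 0.34 (0.170). Fdft1 was also not called without Mouse1564, Mouse1570 or Mouse1571 (0.48 to 0.53, adjusted p = 0.0575 to 0.102), Hsd17b7 not without Mouse1571 (0.43, 0.0518) and Insig1 not without Mouse1564 (0.34, 0.0588). Hmgcs1 was not called with batch as a covariate (0.37, adjusted p = 0.0586). In a fit of only these 2 groups Insig1 (0.37, 0.0767) and Hsd17b7 (0.41, 0.0597) were not called, and Hsd17b7 was not called without the filter on low counts either (0.40, 0.0531).

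**Figure D4:**
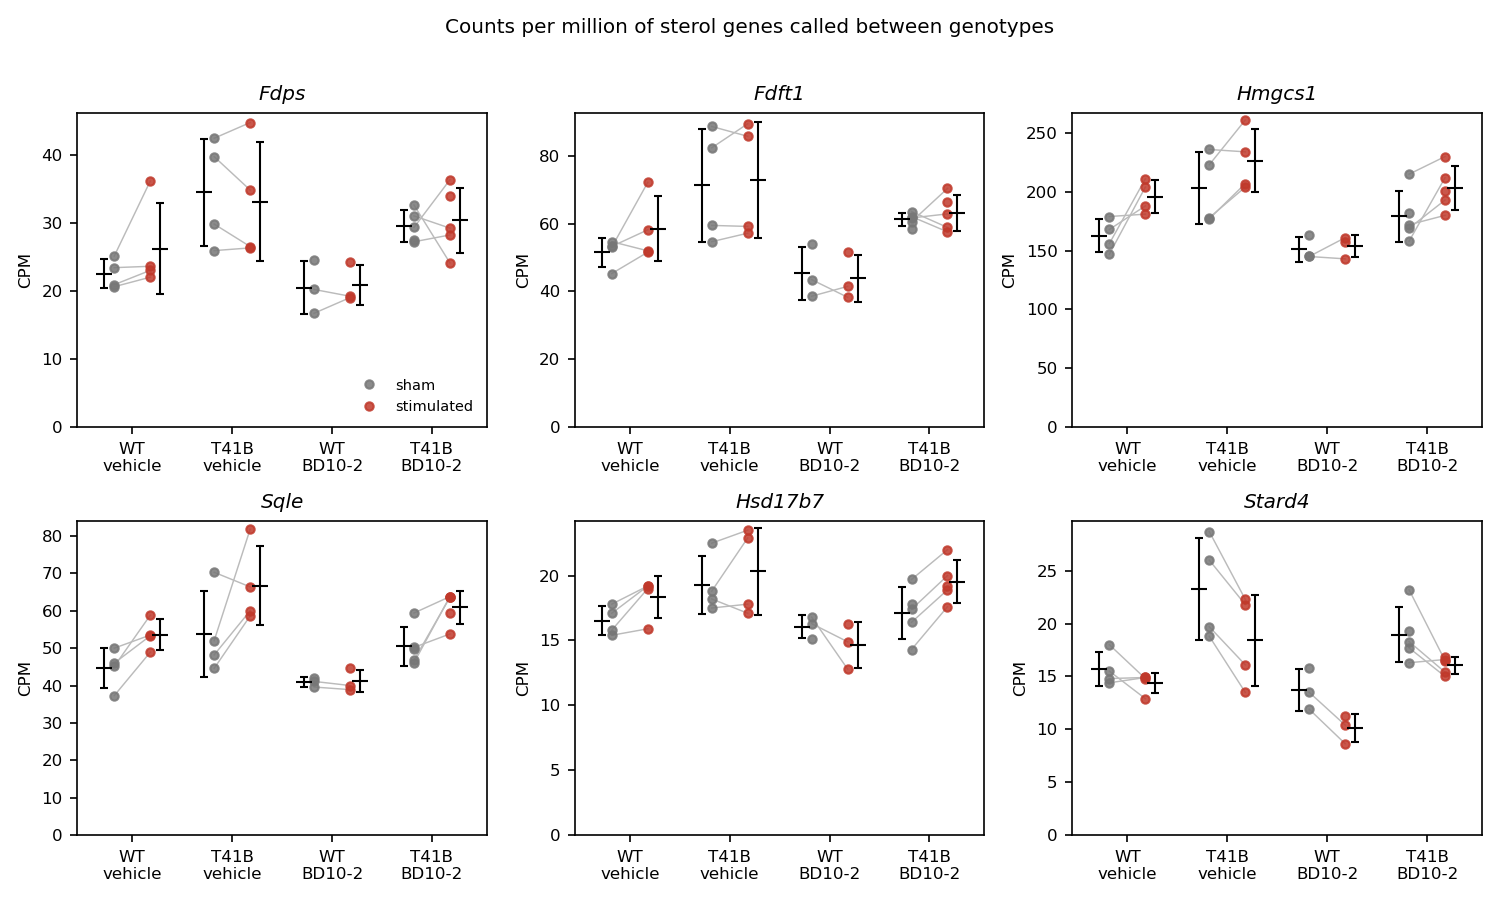
CPM of 6 sterol genes (y axis, from 0) in each sample, drawn as in the plot of stimulation-responsive genes, with grey for sham, red for stimulated, lines for slices of 1 mouse and black bars for the mean and SD. In BD10-2 slices after stimulation, Sqle lay at 38.9 to 44.6 CPM in wild-type and 53.8 to 63.8 CPM in T41B mice.

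Batches named in the labels each held 1 treatment, and T41B and wild-type samples of the same stimulation stood together in 7 sets of batch and stimulation, mostly 1 sample a genotype. The sets come from 4 batches and 10 mice, 7 of which stand in both a sham and a stimulated set, so they are not independent. Within those sets, T41B was higher in 7 of 7 for Abca1 (log2 differences of 0.10 to 1.16), Mlxipl (0.27 to 1.28), Mylip (0.05 to 0.36) and Stard4 (0.06 to 0.91). It was higher in 6 of 7 for Fdps (-0.05 to 0.84), Fdft1 (-0.02 to 0.76), Hmgcs1 (-0.01 to 0.59) and Sqle (-0.16 to 0.63), and in 5 of 7 for Insig1 (-0.05 to 0.45) and Hsd17b7 (-0.10 to 0.48). A count of 7 of 7 was not particular to called genes. Srebf2, Lss, Mvk and Nsdhl reached it too, without a genotype call in the fit of the 8 groups. T41B was lower in 6 of 7 for Cyp46a1, in 5 for Insig2 and in 4 for Abcg1, Cyp51, Idi1, Fasn and Scd1. Plaque-associated microglia markers were higher in T41B mice in all 4 comparisons, 10 of 10 each time, with summed levels of 527 to 1140 CPM against 240 to 332 CPM. Homeostatic microglia markers were higher for 8, 4, 7 and 8 of 10 in the order above, with median log2 differences of 1.04, 0.48, 0.99 and 1.17. Their summed level was 476 to 804 CPM in T41B and 247 to 332 CPM in wild-type sham slices, and 236 to 434 CPM against 115 to 171 CPM in stimulated slices. Astrocyte markers were higher for 3, 2, 2 and 6 of 8. Choroid plexus markers were higher for 1 of 8 in sham vehicle slices (median log2 difference 1.66) and lower for 2 of 8 in stimulated vehicle slices (-2.06). Neuronal markers were lower for 1 of 8 in each vehicle comparison, oligodendrocyte markers higher for 1 of 8 in sham vehicle slices (median 0.41), and hippocampal neuron markers lower for 1 of 6 in sham BD10-2 slices. Their part in the differences of the members was not tested.

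The last comparisons asked whether BD10-2 changed the set. No member was called by edgeR in any of the 4 comparisons of BD10-2 with vehicle, nor by DESeq2, and 0% of all tested genes were called by edgeR in each of them. At an unadjusted p under 0.05 there were 0 members in sham wild-type, 10 in stimulated wild-type, 3 in sham T41B and 1 in stimulated T41B slices, where 1.92%, 5.61%, 2.21% and 3.9% of all tested genes were under it. The 10 in stimulated wild-type slices were all lower on BD10-2, as were 2.92% of all tested genes. None of these counts stands for a call. They were Insig1, Hmgcs1, Mvk, Idi1, Fdft1, Sqle, Cyp51, Msmo1, Hsd17b7 and Stard4, with log2 differences of -0.26 to -0.51. Msmo1 was 67.0 CPM on vehicle and 52.3 CPM on BD10-2 (-0.36 ± 0.11, unadjusted p = 0.00228, edgeR adjusted p = 0.572), and Hmgcs1 was 196 and 154 CPM (-0.35 ± 0.11, edgeR adjusted p = 0.691). The vehicle slices of this comparison include those of Mouse1509 and Mouse1513, rich in choroid plexus markers, and these markers had a median log2 difference of -3.67. Without the samples rich in them, which leaves 2 stimulated wild-type vehicle samples, 13 members were at an unadjusted p under 0.05, all lower, and none was called. The share of all tested genes under that threshold rose as well, from 5.61% to 13.2%, and the share that was also lower from 2.92% to 6.75%. The counts of the other 3 treatment comparisons moved without these samples too, from 0 to 2 in sham wild-type, from 3 to 0 in sham T41B and from 1 to 3 in stimulated T41B slices. Each batch held 1 treatment, so treatment and batch cannot be told apart.

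No member was called for a difference in the stimulation response, by genotype on vehicle or on BD10-2 or by treatment in wild-type or T41B mice, where 0% of all tested genes were called in each. At an unadjusted p under 0.05 there were 1, 3, 3 and 0 members, against 8.64%, 4.34%, 1.73% and 2.7% of all tested genes, and DESeq2 called none. In wild-type mice the response on BD10-2 was lower than on vehicle by -0.60 ± 0.20 for Idi1, -0.38 ± 0.15 for Msmo1 and -0.32 ± 0.13 for Sc5d, each with an edgeR adjusted p of 1.

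Scores, which average log2(CPM + 1) across all genes with a shared role, put these values side by side. The squalene to cholesterol score was 4.61 ± 0.05 in sham and 4.74 ± 0.04 in stimulated wild-type vehicle slices (SD, n = 4 each), and 4.59 ± 0.05 and 4.58 ± 0.07 on BD10-2 (SD, n = 3 each). In T41B slices it was 4.78 ± 0.14 and 4.89 ± 0.13 on vehicle (SD, n = 4 each) and 4.71 ± 0.09 and 4.81 ± 0.05 on BD10-2 (SD, n = 5 each). The mevalonate score was 4.76 ± 0.10 in wild-type and 5.13 ± 0.29 in T41B sham vehicle slices, and 4.98 ± 0.22 and 5.15 ± 0.23 in stimulated vehicle slices (SD, n = 4 each). On BD10-2 it was 4.68 ± 0.10 in wild-type (SD, n = 3) and 4.95 ± 0.05 in T41B sham slices (SD, n = 5), and 4.64 ± 0.16 and 5.01 ± 0.12 in stimulated slices. The score of LXR, efflux, transport and turnover was higher in the stimulated slice of 13 of 14 mice. In that role Mylip was higher in 14 and Abca1 in 13 of the 14 mice, while Cyp46a1 was lower in 14, Soat1 in 12 and Stard4 in 11. For fatty acid synthesis, 12 of 14 mice had the lower score after stimulation. In that role Mlxipl was lower in all 14 mice (mean log2 difference -1.02). Fasn was higher in 11, Scd1 in 10 and Acaca in 7, so the lower score does not describe these 3 genes. Scores carry no test here.

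Of 19 other genes of these pathways, all tested, 4, 3, 2 and 3 rose with stimulation in the 4 groups and none fell, against the shares of all genes given above. Ch25h, a cholesterol hydroxylase whose product acts on LXR and SREBP, rose in each group. It went from 0.824 to 4.85 CPM in wild-type vehicle slices (2.59 ± 0.33, edgeR adjusted p = 1.69e-06) and from 4.64 to 18.3 CPM in T41B vehicle slices (1.97 ± 0.25, 1.07e-06). On BD10-2 it went from 1.43 to 4.83 CPM in wild-type (1.72 ± 0.33, 6.26e-04) and from 4.24 to 23.5 CPM in T41B slices (2.47 ± 0.23, 1.67e-09). It was also higher in T41B than in wild-type slices in each of the 4 comparisons, by 2.53, 1.91, 1.55 and 2.30, and the groups did not overlap in any of these 8 comparisons. Its values were low, at 0.356 to 1.37 CPM in sham wild-type vehicle slices, with a lowest count of 6 reads in a sample. This limits the precision of its fold changes, and the alternative fits were run for the members only.

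Lpin1, a phosphatidate phosphatase, rose with stimulation in each group by 0.35, 0.26, 0.28 and 0.24, and Gpam, the first enzyme of glycerolipid synthesis, rose on vehicle by 0.40 in wild-type and 0.28 in T41B slices. Elovl5, a fatty acid elongase, rose in wild-type vehicle slices by 0.34 ± 0.11 (edgeR adjusted p = 0.0491). Npc2, which moves cholesterol out of lysosomes, rose in T41B BD10-2 slices by 0.56 ± 0.15 (0.00818). It was higher in T41B mice in all 4 genotype comparisons, by 1.13 ± 0.18, 0.85 ± 0.17, 1.03 ± 0.19 and 1.22 ± 0.19. Between genotypes Lpin1 and Gpam were each higher in 3 comparisons, Acat2 was higher in sham vehicle slices (0.65 ± 0.17), Me1 (0.33 ± 0.10) and Lpcat3 (0.36 ± 0.12) were higher in stimulated BD10-2 slices, and Elovl6 was lower in sham BD10-2 slices (-0.32 ± 0.08).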

How the data were processed

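RNA of 36 hippocampal slice libraries was analysed, from 18 mice in 8 groups of 3 to 5 mice. The authors deposited 1 table of genes by libraries that holds RSEM expected counts, that is, estimated reads with no scaling between libraries. The submitters' processing notes name cutadapt 1.8.1, STAR 2.7.6a, RSEM 1.3.1, featureCounts 1.6, SAMtools 1.11 and the builds GRCm38.p6 and mm10, without their roles. Per the labels' protocols, libraries came from 200 ng of total RNA with ribosomal depletion and a stranded kit. The strand setting of the counting is not given in the sources used here, so reads of overlapping genes cannot be told apart.

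Here the expected counts were rounded, and libraries with the same mouse and stimulation labels were added, which left 32 samples. The 2 libraries of each of the 4 such pairs differed by more than sampling noise (7.61 to 30.5 chi-square units for each degree of freedom). Genes were kept by filterByExpr (minimum count 10), scaled by TMM and tested with edgeR 4.0.16 (quasi-likelihood, R 4.3.3) in 1 fit of the 8 groups, for 16 contrasts. Adjustment followed Benjamini and Hochberg over 19478 genes. CPM are counts scaled with TMM library sizes. Exon lengths and overlaps follow GENCODE for GRCm38, and promoter windows follow RefSeq. The fit was also run on simulated counts, drawn independently for each sample with a fixed spread. That run does not cover slices that share a mouse. Slices of the same mouse shared deviations from their group means (mean correlation 0.19, range 0.01 to 0.38, 14 pairs from the mouse labels), so a fit with mouse as a block was run beside the unblocked one.

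The members, the other gene lists and the tests were chosen with earlier results of these data known. All members could be named. Those called in a comparison were given in full (at most 5 in each direction by size), as were Srebf1, Srebf2, Insig1, Hmgcs1, Sqle, Abca1, Abcg1, Cyp46a1, Scd1 and Fasn where described, and other pathway genes were named where called. Alternatives were DESeq2 1.42.0, RLE scaling, no filter, only the groups compared, the deeper of same-label libraries, the mouse block, batch as a covariate and each mouse left out. Leaving out the samples over 500 CPM of summed choroid plexus markers was chosen after the data were seen.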

Additional observations from a re-analysis of the deposited data

Results flagged for a closer look

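In 204 sets of 1 gene in 1 group of 4 or 5 samples, 14 held a sample far from the others on the log2(CPM + 1) scale. The rule has a nominal rate of about 1 flag in 20 sets for normally spread values, and this rate was not checked here.

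In stimulated wild-type vehicle slices, Mouse1524 stood high for Mvd (16.3 CPM against 11 in the next sample) and Fdps (36.1 against 23.6), Mouse1509 low for Hsd17b7 (15.9 against 19) and Mouse1522 low for Stard4 (12.9 against 14.8). In sham wild-type vehicle slices, Mouse1513 was low for Fdft1 (45.3 against 53.1) and Mouse1522 low for Lss (31.1 against 36.7). In T41B vehicle slices, Cyp51 was high in the stimulated slice of Mouse1553 (85.4 against 68.9), Nsdhl high in the sham slice of Mouse1579 (19.6 against 13.6), Soat1 low in the sham slice of Mouse1553 (36.1 against 43.5), and Nr1h3 low in the stimulated slice of Mouse1579 (1.3 against 1.86). Acaca was low in the stimulated slice of Mouse1551 (99.3 against 140). In T41B BD10-2 slices, Nr1h3 was low in the stimulated slice of Mouse1563 (1.1 against 2.01), Cyp46a1 high in the sham slice of Mouse1564 (83.6 against 70.3) and Acaca low in the sham slice of Mouse1592 (96.9 against 136).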

How the results depend on the processing

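Of 41 member calls, 21 held under every alternative run for them and 0 reversed; 422 of 504 single gene results kept the call. With mouse as a replicate block, 10 members were called for stimulation in T41B vehicle slices (6 without) and 2 in wild-type BD10-2 slices (4 without), and 11 in wild-type vehicle (8 without) and 10 in T41B BD10-2 slices (9 without). For genotype in sham vehicle slices (4 members) DESeq2 called 7, and batch as a covariate, only the groups compared, and leaving out samples rich in choroid plexus markers each gave 0. In sham BD10-2 slices (1 member) DESeq2 called 3, batch as a covariate 2, the deeper of same-label libraries 4 and only the groups compared 6. In stimulated vehicle slices (2 members) batch as a covariate gave 1, and so did leaving out the choroid plexus samples. In stimulated BD10-2 slices (7 members) batch as a covariate gave 9, of which 6 were among the 7, and only the groups compared gave 5. The shares of all tested genes called in these alternative fits are not given beside the member counts, here or above. A change in a count is therefore not a result about the members alone. The cause was not tested.

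Leaving out 1 mouse at a time gave, for stimulation, 6 to 8 members in wild-type vehicle, 5 to 7 in T41B vehicle, 1 to 3 in wild-type BD10-2 and 6 to 9 in T41B BD10-2 slices. Wild-type BD10-2 slices had 1 without Mouse1571 and 2 without Mouse1586 or Mouse1590. For genotype it gave 0 to 8 in sham vehicle, 2 to 4 in stimulated vehicle, 0 to 2 in sham BD10-2 and 3 to 9 in stimulated BD10-2 slices. For treatment it gave 0 throughout, and for interactions 0, except 0 to 1 for genotype on BD10-2. These counts too stand without the share of all tested genes. The fatty acid synthesis score moved by more than its SD with a pseudocount of 0.1 in 2 of 144 score checks. Mlxipl, Nr1h3 and Tm7sf2 stood below 10 CPM in every sample, which limits their precision.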
